A study of Mus musculus with 36 samples.

Results

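The 8 genes described here, Dlk1, Gata2, Gata3, Klf2, Sox9, Zfp521, Foxo1 and Nr2f2, encode proteins known to hold pre-adipocytes back from becoming fat cells. They were taken by name from the 55536 genes listed in each count table. RNA sequencing was performed on 36 libraries of mouse brown pre-adipocytes that lacked their own Rxra and had been reconstituted with a retrovirus carrying either wild type Rxra (RxraWT) or a mutant in which serine 22 of the nuclear receptor RXRα was replaced by alanine (RxraSA). Both genotypes were made in 2 Rxra-/- clones, 48 and 66, each grown from a single Cas9-edited cell of a clonal line. Each genotype of each clone was sampled at day 0, 2 and 6 of differentiation with 3 replicate libraries. A genotype thus had 6 libraries at each day, and a day had 12. Day 0 cells were confluent in medium with insulin and triiodothyronine, day 2 cells had in addition received dexamethasone, isobutylmethylxanthine and indomethacin, and day 6 cells had been returned to medium without these inducers. Clone 48 was sequenced in library pool 1 and clone 66 in library pool 2, so clone and pool cannot be told apart. The series text calls the replicates technical whereas the study's methods call them independent, and the p-values therefore measure the spread between these libraries, which may be technical. Same-numbered RxraWT and RxraSA libraries also varied together, as described below. Tests between days and between clones counted them as independent, so their SE are probably too small and their p-values too low.

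Fat cell formation proceeds through a wave of CEBPB and CEBPD, which switch on Pparg and Cebpa, whose products then maintain each other and the genes for lipid storage. The genes considered here act against that sequence at different points. DLK1 (also called Pref-1) is a membrane protein whose shed extracellular part signals to pre-adipocytes and acts through SOX9, GATA2, GATA3 and KLF2 are zinc finger transcription factors that repress Pparg, ZFP521 is a zinc finger protein that antagonises EBF1 and ZFP423, NR2F2 (COUP-TFII) is an orphan nuclear receptor, and FOXO1 is a forkhead factor that insulin signalling drives out of the nucleus. Their decline is a usual mark of commitment, while FOXO1 is also known to be present in mature fat.

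Total counts per library ranged from 11351078 to 24349263 with a median of 18338726. The library of clone 48 RxraSA replicate 1 at day 0 stood apart, with the lowest total and 4.38% of its counts in Lars2, CT010467.1 and Gm23935 beside a median of 0.0426% in the others, and leaving it out changed no call of the genes described here. Rxra itself had at least 1851 counts in every library. A list of 12 genes held those that the members are known to hold back or that carry out adipogenesis (Pparg, Cebpa, Cebpb, Cebpd, Ebf1, Ebf2, Fabp4, Adipoq, Plin1, Cidec, Lpl and Slc2a4). Of these, 11 rose and 1, Ebf1, fell by day 2, where 35.8% and 37.5% of all genes tested did. Pparg rose from 75.3 CPM (counts per 1000000 counted read pairs) ± 10.3 (SD, n = 12) at day 0 to 399 at day 2 and 522 at day 6. Lpl, at 653 CPM, and Ebf1, at 88.2, were already well present at day 0. Of the markers of brown fat, Ucp1 had 50 counts in all 36 libraries together and Lhx8 had 0, whereas Cox8b and Cox7a1 rose by day 6. Of 7 pre-adipocyte markers, 5 were tested and 4 fell by day 2, led by Ly6a, whereas Pi16 did not pass the test. The untested Thy1 and Dpp4 had 25 and 3 counts in all 36 libraries together. Pdgfrb rose again from day 2 to day 6, by 0.97 on the log2 scale. Endothelial, macrophage, muscle and T cell lists had summed levels of at most 1.06, 11.5, 30.0 and 0.254 CPM in any library, with Cd3e and Myod1 at 0 counts throughout, and Des and Cd68 made up most of the muscle and macrophage sums. In bulk RNA, fewer cells that express a gene and less RNA per cell cannot be told apart.

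Of the 8 genes, 7 passed the filter on low counts. In the comparison of day 2 with day 0, 5 fell and 1 rose (edgeR quasi-likelihood test over 16723 genes, adjusted p below 0.05), where 37.5% of all genes tested fell and 35.8% rose. At day 6 against day 0, 5 fell and 1 rose again, where 35.4% of all genes fell and 32.9% rose. Between day 2 and day 6, 4 fell and 2 rose, where 30.1% of all genes fell and 31.9% rose. The median log2 fold change of the 7 was −1.59 at day 2 and −0.83 at day 6, both against day 0, beside −0.015 and −0.034 over all genes. Thus a large share of the transcriptome moved between days, and these genes took 4 different courses. Gata2, Zfp521 and Nr2f2 fell and stayed down. Klf2 and Sox9 fell and rose again, Sox9 only in part, to 56.2% of its day 0 mean against 84.8% for Klf2. Foxo1 rose, and Gata3 passed no test at day 2 and was lower at day 6.

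**Figure D1:**
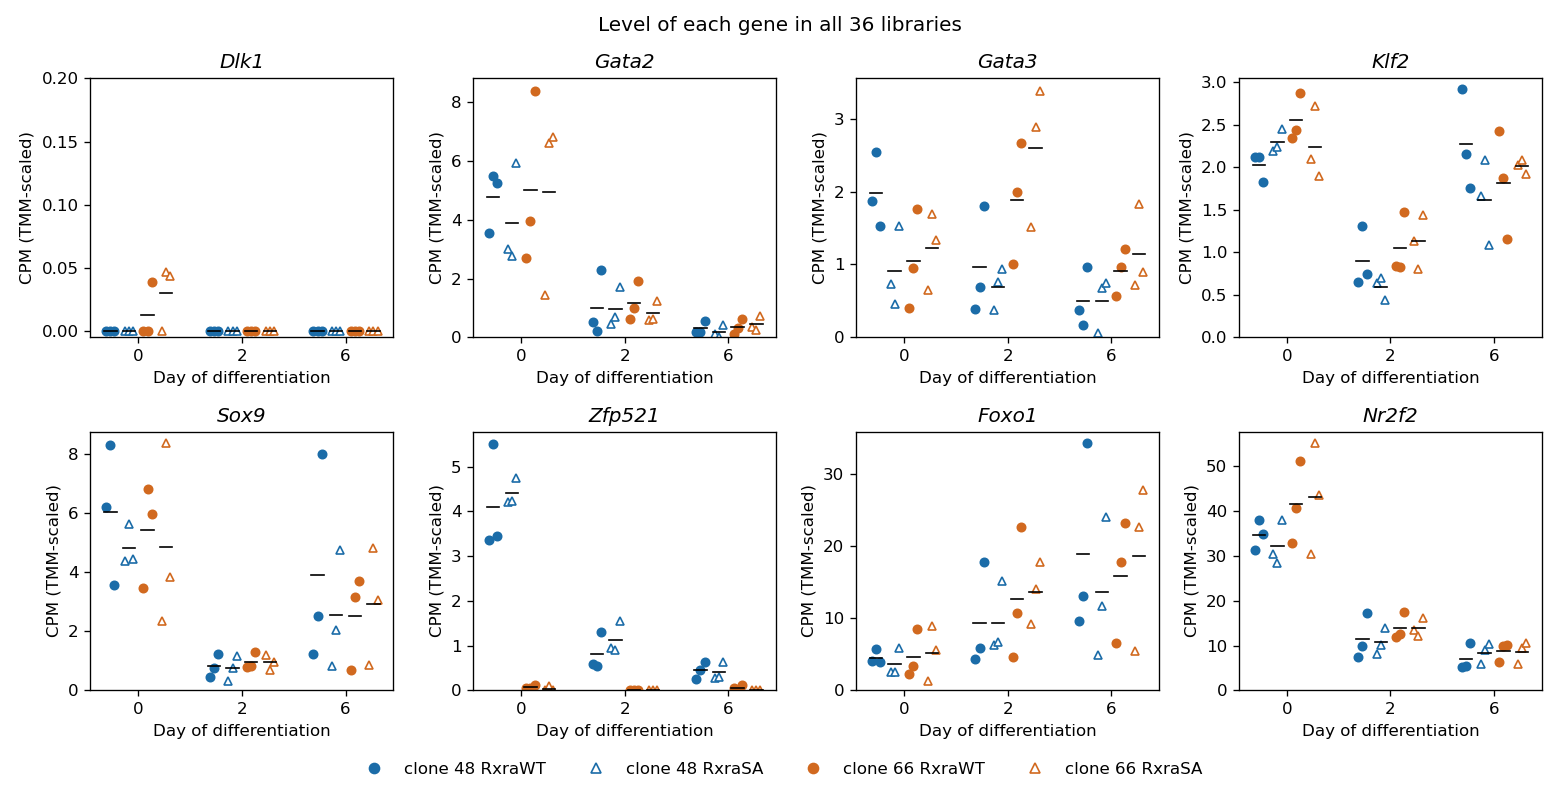
Level of each of the 8 genes in all 36 libraries, as CPM scaled by the trimmed mean of M-values (TMM), against the day of differentiation; points are libraries, filled circles RxraWT and open triangles RxraSA, blue clone 48 and orange clone 66, and black bars are means of 3. The vertical axis differs between panels. Gata2, Zfp521 and Nr2f2 went down from day 0, Klf2 and Sox9 were lowest at day 2, Foxo1 went up, Zfp521 was near 0 in every clone 66 library, and Dlk1 was at most 0.047 CPM.

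To compare levels between genes, CPM were divided by exon length in kilobases (RPKM). At day 0, Nr2f2 was the most abundant at 4.40 RPKM ± 0.98 (SD, n = 12), and its lowest library lay above the highest of every other member. It was followed by Sox9 at 1.28 ± 0.47, Klf2 at 1.23 ± 0.17 and Gata2 at 0.864 ± 0.385, then Foxo1 at 0.524 ± 0.279, Gata3 at 0.324 ± 0.165 and Zfp521 at 0.306 ± 0.322, and these neighbours in the order had overlapping ranges. By day 6 the order had turned. Foxo1 came first at 1.93 RPKM ± 1.11, ahead of Klf2 at 1.05 ± 0.27, Nr2f2 at 0.951 ± 0.260 and Sox9 at 0.718 ± 0.519, and all neighbours overlapped. Gata3, Gata2 and Zfp521 then lay at 0.192 ± 0.119, 0.0585 ± 0.0409 and 0.0322 ± 0.0342 RPKM.

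Dlk1 (ENSMUSG00000040856.17, chr12:109452823-109463336, plus strand, GRCm38), the ligand of the group, was hardly detected. It had 3 counts in all 36 libraries, 1 each in clone 66 RxraWT replicate 3 and clone 66 RxraSA replicates 2 and 3, all at day 0. A library with 0 counts allowed up to 3 counts, which corresponded to 0.115 to 0.243 CPM depending on depth, or at most 0.043 RPKM. Dlk1 did not pass the filter on low counts, and in the fit with no filter it was called in no comparison. The limit covers counting error only. The neighbouring imprinted genes that share its domain were low as well: Meg3 had 2 counts in all, Rian 19, Mirg 20, Rtl1 15 and Dio3 0. Adam17, the protease that sheds the DLK1 ectodomain, was at 132 CPM at day 0 and 144 at day 6. Dlk2, the close relative of Dlk1, was present at day 0 with 1.15 CPM ± 0.71 (SD, n = 12) and fell to 0.0429 ± 0.0604 at day 2, a log2 fold change of −4.66 ± 0.43 (SE, adjusted p = 8.44e-12).

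The stretches of 250 bases before the RefSeq starts (GRCm38.p6) of Dlk1, Foxo1 and Nr2f2 are shown because these genes marked the ends of the range, Dlk1 nearly silent, Foxo1 rising and Nr2f2 abundant and falling. Capitals mark GTAAACA, the core letters bound by forkhead factors such as FOXO1, and CCAAT, on either strand.
Dlk1 chr12:109452573-109452822, plus strand: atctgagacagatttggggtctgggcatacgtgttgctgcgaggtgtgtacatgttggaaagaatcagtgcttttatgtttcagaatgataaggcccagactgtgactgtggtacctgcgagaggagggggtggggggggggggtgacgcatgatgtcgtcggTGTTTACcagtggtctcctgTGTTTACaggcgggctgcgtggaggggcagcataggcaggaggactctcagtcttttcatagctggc
Foxo1 chr3:52268087-52268336, plus strand: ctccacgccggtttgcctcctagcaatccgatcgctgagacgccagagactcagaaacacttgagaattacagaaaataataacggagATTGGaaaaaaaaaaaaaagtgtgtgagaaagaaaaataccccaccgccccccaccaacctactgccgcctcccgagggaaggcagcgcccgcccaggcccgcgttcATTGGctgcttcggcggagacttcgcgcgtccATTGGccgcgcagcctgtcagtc
Nr2f2 chr7:70366747-70366996, minus strand: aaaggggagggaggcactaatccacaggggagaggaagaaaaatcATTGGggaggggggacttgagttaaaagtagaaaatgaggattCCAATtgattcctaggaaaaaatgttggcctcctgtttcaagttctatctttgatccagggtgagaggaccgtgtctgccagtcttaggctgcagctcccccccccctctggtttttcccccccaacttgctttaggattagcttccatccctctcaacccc
GTAAACA stood at 87 and 67 bases before the start of Dlk1, on the reverse strand at both, in no other of the 6 member genes searched, and in 3.65% of all 32851 RefSeq promoters of 300 bases (250 before and 50 after the start). CCAAT stood 3 times before Foxo1, at 162, 55 and 23 bases, and 2 times before Nr2f2, at 205 and 162 bases. It also stood in 1 of the 2 promoters of Gata2 and in 37.4% of all promoters. The letters AGATAA, bound by GATA factors, occurred in none of the 6 and in 11.2% of all, and TATAAA in none and in 13.6%. CACCC, which KLF factors bind, occurred in 5 of the 6 (not Foxo1) and in 57.5% of all. Such matches describe letters, not binding. Sox9 had no entry in the promoter table.

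Gata2 (ENSMUSG00000015053.14, chr6:88193891-88207032, plus strand) fell furthest. In the 12 libraries of day 0 its level ran from 1.45 to 8.40 CPM with a median of 4.6, at day 2 from 0.207 to 2.29 with a median of 0.665, and at day 6 from 0 to 0.713 with a median of 0.292. A library held 3 to 37 counts at day 2 and 0 to 16 at day 6, so the changes to day 6 rest on few counts. Every day 0 library lay above every day 6 library, whereas days 0 and 2 overlapped, clone 66 RxraSA replicate 1 being the lowest at day 0 and clone 48 RxraWT replicate 3 the highest at day 2. The log2 fold change against day 0 was −2.23 ± 0.31 (SE) at day 2 (adjusted p = 6.9e-08) and −3.83 ± 0.36 at day 6 (adjusted p = 1.19e-11), a 14.2-fold lower level. It fell again between day 2 and day 6 by 1.6 ± 0.40 on the log2 scale (adjusted p = 0.000808), a call lost in clone 66 alone (−1.31 ± 0.54, adjusted p = 0.0544). The fall held in all 12 pairs of libraries with the same clone, genotype and replicate number at each step. In clone 48 alone the log2 fold change at day 6 against day 0 was −4.16 ± 0.55, and in clone 66 alone −3.62 ± 0.48. The GATA cofactors Zfpm1 and Zfpm2 (FOG-1 and FOG-2) fell by day 2 as well, Zfpm2 by 1.66 on the log2 scale (adjusted p = 9.08e-11) and Zfpm1 by 1.13 (adjusted p = 2.81e-07), and Zfpm1 was higher again at day 6 than at day 2 (1.44, adjusted p = 3.71e-09). Gata4, another GATA factor of mesodermal tissues, was at 8.78 CPM at day 0 and 7.59 at day 6 and passed no test between days.

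Nr2f2 (ENSMUSG00000030551.14, chr7:70351944-70366735, minus strand) was the most even in its decline. Its level ran from 28.4 to 55.2 CPM at day 0 (median 36.4), from 7.35 to 17.6 at day 2 (median 12.4) and from 5.22 to 10.6 at day 6 (median 9.19). The lowest day 0 library was above the highest library of either later day, and days 2 and 6 overlapped. The log2 fold change against day 0 was −1.59 ± 0.14 (SE) at day 2 (adjusted p = 5.54e-12) and −2.20 ± 0.15 at day 6 (adjusted p = 2.83e-15). From day 2 to day 6 it fell by 0.61 ± 0.15 on the log2 scale (adjusted p = 0.000486), which in clone 48 alone did not pass the test (−0.50 ± 0.24, adjusted p = 0.0895). The share of the day 0 mean left at day 2 was 33.2% in clone 48 and 33.0% in clone 66, and at day 6 it was 23.0% and 20.5%. Of its exon bases, 7.455% are shared with B130024G19Rik on the other strand, which had 9 to 256 counts, its median being 174 before induction, 27 on day 2 and 43 on day 6. Counting used no strand option, so read pairs from the shared bases could not be assigned to either gene by strand. Its relatives moved the other way: Nr2f1 rose by 0.39 (adjusted p = 0.00372) and Nr2f6 by 0.29 (adjusted p = 0.00183) on the log2 scale by day 2.

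Zfp521 (ENSMUSG00000024420.9, chr18:13687013-13972787, minus strand) fell in clone 48 and was almost absent from clone 66. In clone 48 its day 0 values were 3.36, 5.51 and 3.46 CPM with RxraWT and 4.21, 4.24 and 4.76 with RxraSA. At day 2 they were 0.585, 0.553 and 1.30 with RxraWT and 0.949, 0.902 and 1.54 with RxraSA, and at day 6 all 6 libraries lay between 0.249 and 0.629. Within clone 48 the 3 days did not overlap except for days 2 and 6, where 2 day 2 libraries lay below the highest of day 6. In that clone alone the log2 fold change against day 0 was −2.14 ± 0.25 (SE) at day 2 (adjusted p = 9.3e-07) and −3.28 ± 0.27 at day 6 (adjusted p = 2.14e-08). In the fit over both clones it was −2.13 ± 0.25 (adjusted p = 3.04e-09) and −3.14 ± 0.28 (adjusted p = 4.39e-12). The further fall from day 2 to day 6, 1.02 ± 0.32 on the log2 scale (adjusted p = 0.00663), did not pass the test without replicate 3 of clone 48 (−0.86, adjusted p = 0.0675).

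In clone 66, Zfp521 had 1, 1 and 3 counts with RxraWT and 0, 2 and 0 with RxraSA at day 0, no count in any library at day 2, and 3 counts in 6 libraries at day 6. At day 0 the 6 clone 48 libraries held 446 counts against 7, a ratio of 79.0 per unit of effective library size (95% counting interval 38.0 to 198). At day 2 the level was at least 36.4-fold higher in clone 48, taking 3 counts over the clone 66 group as the floor, and at day 6 the ratio was 16.7 (5.35 to 84.0). The clones did not overlap at any day. The difference passed the test at day 0 (adjusted p = 1.11e-11), day 2 (adjusted p = 3.03e-08) and day 6 (adjusted p = 2.68e-05). Zfp521 was the 1 member to differ between clones at day 0, where 23.7% of all genes tested did, and 4 of 16723 genes had a lower log2 fold change than its −6.26 ± 0.38 (SE). Zfp423, which ZFP521 antagonises, rose from 2.35 CPM at day 0 to 13.9 at day 2 and 24.1 at day 6 over both clones. Its log2 fold change was 3.53 at day 6 (adjusted p = 1.22e-13), and Ebf1 was at 88.2, 71.1 and 112 CPM. For clone 66 against clone 48, the log2 fold change of Zfp423 was −1.48 ± 0.38 (SE, adjusted p = 0.00481) at day 0. At day 2 it was −1.81 ± 0.34 (adjusted p = 0.000117). Ebf1 was at −0.43 (adjusted p = 0.0123) and −0.47 (adjusted p = 0.00467) at these days, and neither gene passed the test at day 6. Ebf2 was at −6.48 at day 0 (adjusted p = 1.9e-19), −6.36 at day 2 (adjusted p = 7.64e-20) and −5.70 at day 6 (adjusted p = 4.17e-19). A link of these differences to Zfp521 was not tested.

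The genes next to Zfp521 did not share its low level in clone 66. Within 2000000 bp on either side, a window chosen after the values were seen, 21 genes were tested. Of these, 13 were higher in clone 66 at day 0 and 1, Impact, was lower (−0.79 ± 0.11, adjusted p = 3.11e-06). Over the whole of chromosome 18, 68.0% of genes tested were higher and 1.94% lower, and over all genes 12.6% and 11.1%. The nearest protein-coding neighbours tested were Ss18, at 89.4 CPM ± 7.7 in clone 48 and 158 ± 8.3 in clone 66 (SD, n = 6), and Impact, a gene imprinted in mouse, at 219 ± 18.1 and 127 ± 16.5. Lama3, a laminin chain gene, went the other way, with 0.018 CPM in clone 48 and 1.13 in clone 66. The median log2 fold change of the 21 was 0.82, beside 0.018 over all genes tested. Since every clone 48 library was in pool 1 and every clone 66 library in pool 2, a difference of the clones and one of the pools cannot be told apart.

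**Figure D2:**
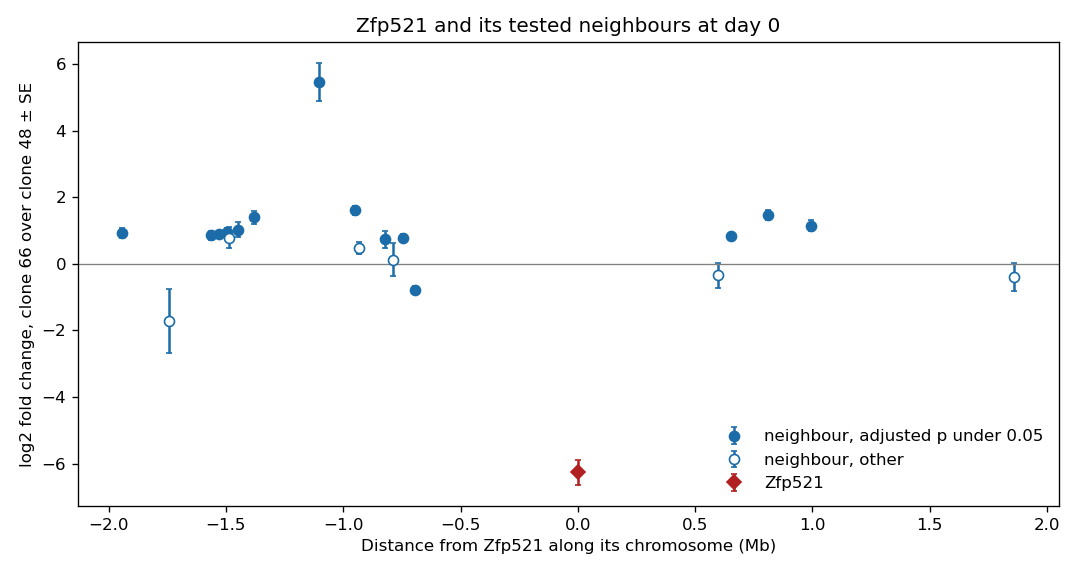
Difference between clones at day 0 (log2 fold change of clone 66 over clone 48, with SE bars) for Zfp521 and the 20 tested neighbours with counts at that day, against the distance from the gene along its chromosome in megabases; filled points passed the test. Zfp521 lay at −6.26, and 13 neighbours lay above 0 and passed the test, as did 68.0% of all genes tested on chromosome 18. The SE count same-numbered libraries of both genotypes as independent and are probably too small.

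Klf2 (ENSMUSG00000055148.7, chr8:72319033-72321656, plus strand), a Krüppel-like factor that binds the Pparg promoter, dipped at day 2 and came back. Day 0 libraries ran from 1.83 to 2.88 CPM (median 2.21), day 2 libraries from 0.441 to 1.47 (median 0.819) and day 6 libraries from 1.09 to 2.92 (median 1.97). No day 2 library reached the lowest of day 0, and days 0 and 6 overlapped widely. The fall to day 2 was 1.31 ± 0.16 on the log2 scale (SE, adjusted p = 4.06e-09), and the return from day 2 to day 6 was 1.07 ± 0.16 (adjusted p = 4.99e-07), higher in 11 of 12 same-numbered pairs. Day 6 did not differ from day 0 by the test (−0.24 ± 0.14, adjusted p = 0.142). Scaling by total count instead of TMM moved the median of all genes by −0.188, and day 6 then passed (−0.43, adjusted p = 0.011). The dip was seen in clone 48 (−1.59 ± 0.21) and in clone 66 (−1.10 ± 0.20) alone. Klf3 and Klf7, other Krüppel-like repressors of adipogenesis, fell by day 2 too, by 1.20 (adjusted p = 3.23e-11) and 1.27 (adjusted p = 1.28e-15) on the log2 scale, and both were higher at day 6 than at day 2. Klf4, which promotes the early steps, was at 8.44 CPM at day 0 and 7.42 at day 2 and did not pass the test.

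Sox9 (ENSMUSG00000000567.5, chr11:112782224-112787760, plus strand) went the same way with a wider spread. It ran from 2.35 to 8.36 CPM at day 0 (median 5.03), from 0.316 to 1.31 at day 2 (median 0.807) and from 0.677 to 8.0 at day 6 (median 2.79). Day 2 lay wholly below day 0, and day 6 spanned both. The fall to day 2 was 2.57 ± 0.33 on the log2 scale (SE, adjusted p = 1.54e-08), the largest of the 7 at that step. The return from day 2 was 1.74 ± 0.34 (adjusted p = 3.04e-05), higher in 10 of 12 same-numbered pairs, and it was seen in clone 48 (2.02 ± 0.50) and in clone 66 (1.48 ± 0.46) alone. Day 6 remained below day 0 (−0.83 ± 0.29, adjusted p = 0.0121). That call was lost without replicate 2 of clone 48 (−0.67, adjusted p = 0.0855) and in either clone alone (−0.75 in clone 48, adjusted p = 0.145, and −0.89 in clone 66, adjusted p = 0.0662). At day 6 the replicate 1 libraries of all 4 clone and genotype groups were the lowest of their group, at 1.24, 0.833, 0.677 and 0.869 CPM, against 2.03 to 8.0 in the other 8. Of 8 partners and cartilage targets that SOX9 is known for, 5 were tested, of which 3 rose and 2 fell by day 2 (35.8% and 37.5% of all genes) and 3 rose and 1 fell by day 6 (32.9% and 35.4%). Among the targets, the collagen gene Col11a2 rose by 1.48 by day 2 (adjusted p = 1.06e-10) and 2.22 by day 6 (adjusted p = 5.02e-15). Col11a1 rose by 1.22 by day 2 (adjusted p = 0.00121) and Comp fell by 1.36 (adjusted p = 2.56e-05). Col11a1 was low, with at most 21 counts in any library and 0.187 CPM ± 0.26 (SD, n = 12) at day 0. At that day it was higher in clone 66 than in clone 48 by 5.76 ± 1.05 (SE, adjusted p = 0.000275). Acan and Col9a1 had at most 3 counts in any library. Of the partners of SOX9, Sox5 fell by 2.55 by day 2 (adjusted p = 1.34e-13) and Sox6 rose by 1.13 (adjusted p = 3.05e-05). Both rose from day 2 to day 6, Sox5 by 2.15 (adjusted p = 1.28e-11) and Sox6 by 3.71 (adjusted p = 2.78e-19), all on the log2 scale.

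Foxo1 (ENSMUSG00000044167.6, chr3:52268336-52353221, plus strand) was the exception in rising. Day 0 libraries ran from 1.25 to 8.88 CPM (median 3.98), day 2 libraries from 4.29 to 22.7 (median 9.94) and day 6 libraries from 4.94 to 34.2 (median 15.4). The days overlapped, and all 12 same-numbered pairs were higher at day 2, and all 12 at day 6, than at day 0. These are not 12 independent observations, because RxraWT and RxraSA libraries of a replicate number shared variation. The log2 fold change against day 0 was 1.29 ± 0.34 (SE) at day 2 (adjusted p = 0.00106) and 1.88 ± 0.34 at day 6 (adjusted p = 1.13e-05), a 3.68-fold higher level. Both steps also passed in each clone alone, with 1.97 ± 0.46 in clone 48 and 1.82 ± 0.51 in clone 66 at day 6. Day 6 against day 2 did not pass the test (0.59 ± 0.33, adjusted p = 0.121), but did so with replicate number as a block (0.52 ± 0.18, adjusted p = 0.0107) and without replicate 1 of clone 66 (0.67, adjusted p = 0.0444). Replicate 3 was the highest of its group in all 4 clone and genotype groups at day 2 and again at day 6, and the same was true of Gata2 and Nr2f2. Of the other FOXO genes, Foxo3 rose from 43.5 CPM to 79.5 at day 6 (0.86 on the log2 scale, adjusted p = 4.87e-06), and Foxo4 fell by 0.63 to day 2 (adjusted p = 4.29e-06) and rose by 1.09 from there (adjusted p = 1.18e-10). Of its exon bases, 7.778% are shared with Gm20402 on the other strand, which had at most 1 count in any library.

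Of 10 genes known as targets of FOXO factors, 7 rose and 3 fell by day 2, and 8 rose and 1 fell by day 6, with a median log2 fold change of 1.16 and 0.98. Over all genes 35.8% rose and 37.5% fell by day 2 and 32.9% rose and 35.4% fell by day 6, with medians of −0.015 and −0.034. Pnpla2, which encodes adipose triglyceride lipase, rose by 5.67 (adjusted p = 5.56e-15) and Cdkn1a, the cell cycle inhibitor p21, by 3.15 (adjusted p = 1.17e-09) on the log2 scale by day 2. Fbxo32, the ubiquitin ligase atrogin-1, fell by 2.67 (adjusted p = 4.65e-16) and Cdkn1b by 0.83 (adjusted p = 3.28e-10). These genes also answer to other factors of the same programme.

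Gata3 (ENSMUSG00000015619.10, chr2:9857078-9890034, minus strand) passed no test between day 0 and day 2 over both clones and had its lowest mean at day 6. In clone 48 the day 0 values were 1.88, 2.54 and 1.53 CPM with RxraWT and 0.729, 0.459 and 1.53 with RxraSA, and those of day 2 were 0.390, 0.691 and 1.80 with RxraWT and 0.380, 0.763 and 0.937 with RxraSA. In clone 66 they were 0.407, 0.956 and 1.76 with RxraWT and 0.651, 1.69 and 1.34 with RxraSA at day 0, against 1.01, 1.99 and 2.67 and 1.52, 2.89 and 3.39 at day 2. Day 2 was thus higher than day 0 in all 6 same-numbered pairs of clone 66 and in 2 of 6 of clone 48. Over both clones day 2 against day 0 gave 0.18 ± 0.32 (adjusted p = 0.634), whereas clone 66 alone rose (0.97 ± 0.35, adjusted p = 0.0241) and clone 48 alone gave −0.73 ± 0.45 (adjusted p = 0.168). The test of the difference between those changes gave 1.66 ± 0.59 on the log2 scale and missed the threshold (adjusted p = 0.0954), and it passed with the replicate number as a block (1.73 ± 0.42, adjusted p = 0.00529) and with no filter on low counts (1.68, adjusted p = 0.0233). For that comparison 6.84% of all genes were called. Klf2 was next among the members there, at 0.44 ± 0.30 (adjusted p = 0.492).

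At day 2 itself, Gata3 was higher in clone 66 than in clone 48 by 1.42 ± 0.42 on the log2 scale (SE, adjusted p = 0.0109), where 30.0% of all genes differed between clones. The call was lost without replicate 1 or 2 of clone 48 (1.09 and 1.36, adjusted p = 0.0727 and 0.053) or replicate 2 or 3 of clone 66 (1.37 and 1.13, adjusted p = 0.0556 and 0.0937). Klf2 lay at 0.59 ± 0.23 in that comparison (adjusted p = 0.0572) and passed without replicate 2 of clone 48 (0.83, adjusted p = 0.0286) or of clone 66 (0.75, adjusted p = 0.0388), and Nr2f2, at 0.33 ± 0.22 (adjusted p = 0.272), passed without replicate 3 of clone 48 (0.68, adjusted p = 0.0157). For Gata3 the clones overlapped at day 0 (−0.24 ± 0.41, adjusted p = 0.744). At day 6, where 26.2% of all genes differed, the value was 1.03 ± 0.49 (adjusted p = 0.123), passing without replicate 3 of clone 48 (1.70, adjusted p = 0.0238) or replicate 1 of clone 66 (1.27, adjusted p = 0.0454). Gata3 fell from day 0 to day 6 over both clones (−0.81 ± 0.35, adjusted p = 0.0395). The fall passed in clone 48 alone (−1.42 ± 0.48, adjusted p = 0.0191) and not in clone 66 alone (−0.14 ± 0.38, adjusted p = 0.772), the test of the difference between them giving an adjusted p of 0.384. The call over both clones was lost without replicate 1, 2 or 3 of clone 48 or replicate 3 of clone 66, with values from −0.59 to −0.85 and adjusted p from 0.0643 to 0.132. From day 2 to day 6 it fell in all 12 same-numbered pairs (−0.98 ± 0.34, adjusted p = 0.0132), a call lost in clone 48 alone (−0.69 ± 0.52, adjusted p = 0.287) and without replicate 3 of clone 66 (−0.81, adjusted p = 0.0893). Its counts were low, at most 66 in any library.

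**Figure D3:**
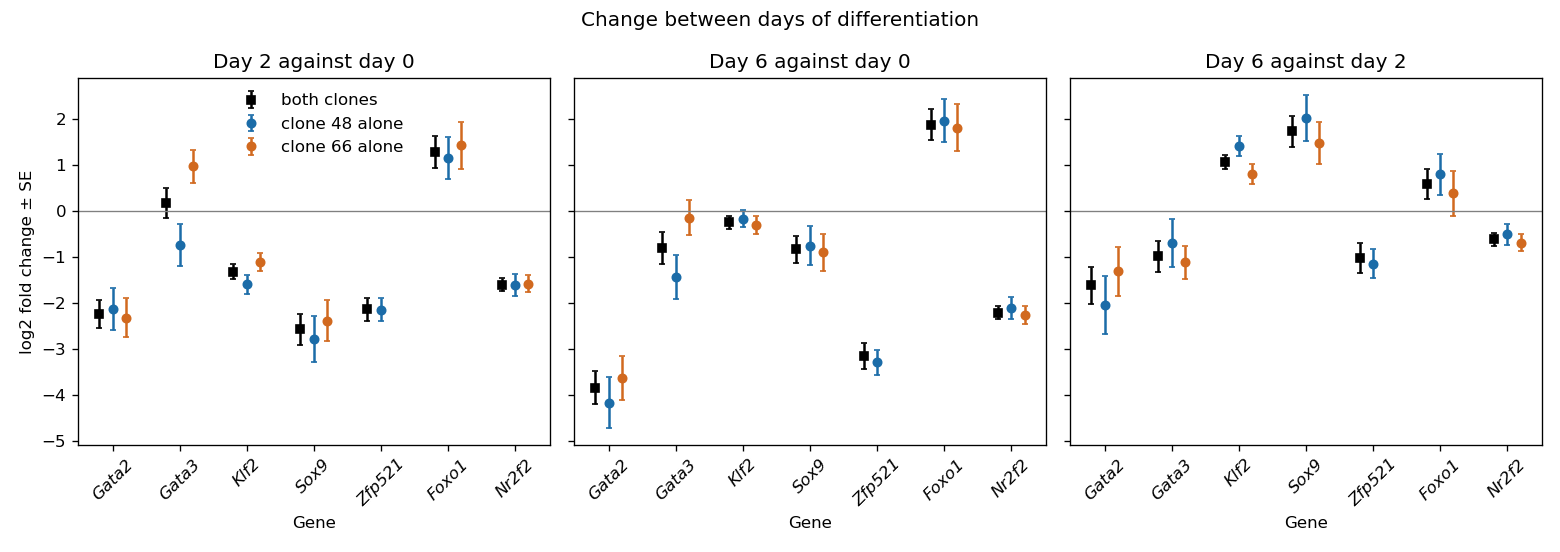
Change between days for the 7 genes tested, as log2 fold change with SE bars, fitted over both clones (black squares) and in clone 48 (blue) or clone 66 (orange) alone; Zfp521 is not drawn for clone 66, where it had at most 3 counts in a library. Gata2, Sox9, Zfp521, Nr2f2 and Klf2 lay below 0 at day 2 in every fit drawn, Foxo1 lay above 0, and Gata3 lay at −0.73 in clone 48 and 0.97 in clone 66. The SE count same-numbered libraries of both genotypes as independent and are probably too small.

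The mutation of serine 22 was compared with wild type at each day. None of the 7 genes passed the test between RxraSA and RxraWT at day 0, 2 or 6 (edgeR and DESeq2, adjusted p below 0.05), where 0.0% of all genes did, and none had an unadjusted p below 0.05, against 139, 162 and 125 of 16723 genes at the 3 days. At day 0 the log2 fold changes ran from −0.57 (Gata3, SE 0.46) to 0.019 (Zfp521, SE 0.34). At day 2 they ran from −0.29 (Gata2, SE 0.49) to 0.47 (Zfp521, SE 0.41), and at day 6 from −0.40 (Zfp521, SE 0.50) to 0.18 (Gata3, SE 0.52). The smallest errors were those of Nr2f2, between 0.197 and 0.207 over the 3 days, with differences of −0.025, −0.057 and 0.12. Every gene overlapped between genotypes at every day. In clone 48, Gata3 at day 0 was 0.459 to 1.53 CPM with RxraSA and 1.53 to 2.54 with RxraWT (−1.09 ± 0.59, adjusted p = 0.915), and in clone 66 the difference was 0.20 ± 0.52. The difference in change over time between genotypes passed the test for no member either, with log2 differences from −0.86 to 0.75 and 0.0% of all genes called, while 144, 128 and 153 genes had an unadjusted p below 0.05. The SE ran from 0.197 for Nr2f2 at day 0 to 0.672 for Gata2 at day 6. Differences larger than their SE, such as that of Gata3 at day 0, did not pass. RxraSA and RxraWT libraries that formed same-numbered pairs deviated together, with a mean r of 0.71 over 18 pairs. The fit used here did not model this, so its SE and unadjusted p-values include variation shared by both genotypes. They are therefore not the precision of a paired comparison. In the tests between days and between clones, the same fit counted both libraries of a pair as independent. There the shared variation probably makes the SE too small and the p-values too low. By how much was not tested. With replicate number as a block within each day, no member passed either.

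**Figure D4:**
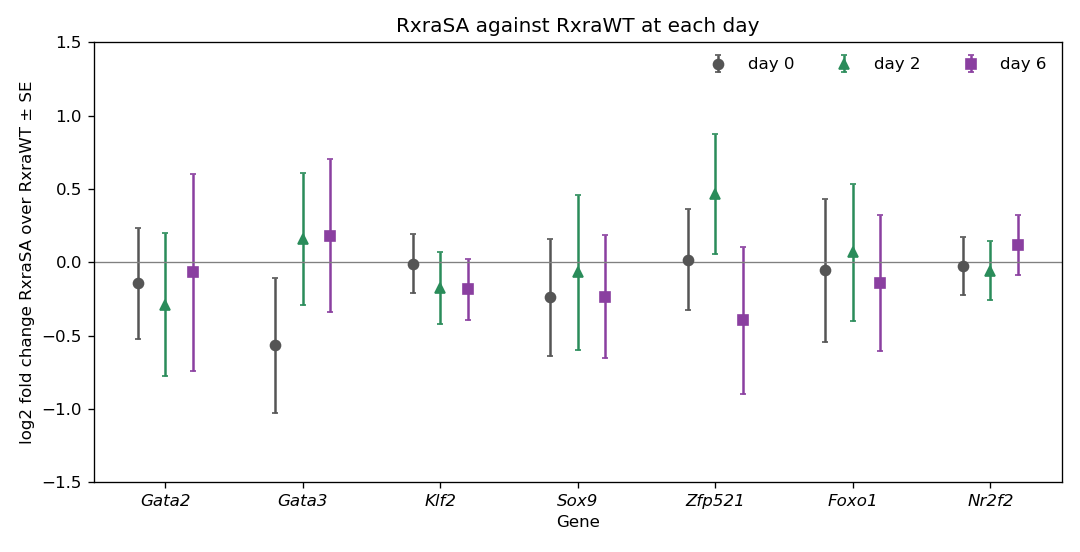
Log2 fold change of RxraSA over RxraWT with SE bars for the 7 genes tested at day 0 (grey circles), day 2 (green triangles) and day 6 (purple squares), 6 libraries per genotype. The values lay between −0.57 and 0.47, and none passed the test. The SE include variation shared by same-numbered libraries of both genotypes.

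Among other known brakes on adipogenesis, 18 of 22 were tested, of which 10 fell and 5 rose by day 2 (37.5% and 35.8% of all genes did), and 9 fell and 4 rose by day 6 (35.4% and 32.9%). Runx2, the osteoblast master regulator, fell by 2.43 on the log2 scale by day 2 (adjusted p = 4e-15), whereas Irf4 rose by 5.16 (adjusted p = 1.13e-20) and Ddit3, the stress-induced CEBP relative CHOP, by 2.05 (adjusted p = 1.61e-12). Wnt10b, the Wnt ligand best known for holding pre-adipocytes back, was at 2.18 CPM at day 0, 0.047 at day 2 and 0.136 at day 6. Hes1, a target of Notch signalling, rose by 0.93 by day 2 (adjusted p = 5.98e-06) and by 1.97 by day 6 (adjusted p = 8.46e-13). On the side that is held back, Cebpb went from 9.68 CPM to 70.7 at day 2 and 37.9 at day 6 and Cebpa from 22.6 to 718 and 489. From day 2 to day 6, 6 of the 12 listed genes named above rose (Pparg, Ebf1, Fabp4, Adipoq, Plin1 and Slc2a4) and 3 fell (Cebpa, Cebpb and Cebpd), where 31.9% of all genes rose and 30.1% fell. Pparg rose by 0.38 (adjusted p = 8.35e-05), Cebpa fell by 0.57 (adjusted p = 0.000854) and Cebpb by 0.88 (adjusted p = 9.99e-08) on the log2 scale at that step.

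The genes most alike in course were found as those with the smallest root mean square difference of centred log2 CPM over the 12 means of clone, genotype and day, among 9381 genes with a mean log2 CPM of at least 3. For Foxo1 the nearest was Sdha, a subunit of succinate dehydrogenase, at 0.175. Klf2 was nearest to Slc36a1 (0.143), Sox9 to Emilin2 (0.184), Gata2 to Ncs1 (0.242) and Gata3 to Myo10 (0.299). Zfp521 had no close match, its nearest being Efemp1 at 0.792. Among the members themselves Klf2 and Sox9 were the closest pair (0.511), followed by Gata2 and Nr2f2 (0.619), and Zfp521 and Foxo1 were the farthest apart (2.38).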

How the data were processed

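The authors aligned the reads of rRNA-depleted, stranded total RNA libraries with STAR 2.7.0d to mm10 and counted read pairs over exons with featureCounts 1.6.2 and GENCODE M21. The deposited values are raw counts per gene and, per the file headers, no strand option was set. All 55536 gene positions matched GENCODE M21. Counts were analysed with edgeR 4.0.16 (filterByExpr, TMM, quasi-likelihood F test, Benjamini-Hochberg adjustment over 16723 genes): day and genotype contrasts with clone as covariate, clone contrasts over the 12 groups, all 36 libraries in each fit. CPM are TMM-scaled, and RPKM were computed from them. RxraSA and RxraWT libraries with the same clone, day and replicate number deviated together (r from 0.176 to 0.930 over 18 pairs). The edgeR fit counted both libraries of such a pair as independent, so SE and p-values of day and clone contrasts are probably too low. Replicate number was also fitted as a block over the days of a clone and, for the genotype comparison, within each day. Whether same-numbered libraries of different days deviated together was not tested. DESeq2 1.42.0, other scalings, no filter, limma 3.58.1 and leaving out replicates were alternatives. The fits were tested on simulated independent libraries with the same dispersion for all genes and changes only in genes with average log2 CPM above 1. That simulation did not cover changes at lower levels or libraries that deviate together. The members and gene lists were chosen with earlier results of these data known. From each list the rule allowed at most 4 named genes per comparison, the 2 with the largest changes in each direction among those called with average log2 CPM of at least 1, plus Pparg, Cebpa and Cebpb; other genes named from the lists were picked after their values were seen. The gene nearest in course to Nr2f2 is not reported here.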

Additional observations from a re-analysis of the deposited data

How the results depend on the processing

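Of 429 log2 fold changes recomputed under an alternative (7 genes between days, Zfp521 and Gata3 between clones, Klf2 and Nr2f2 between clones at day 2, Gata3 for the clone difference in change), 396 kept their direction and their side of the threshold, 17 lost the call, 11 gained it and 5 changed sign. The changes of sign all concern Gata3: day 2 against day 0 became −0.088 with library size alone, −0.73 in clone 48 alone and −0.048 without replicate 3 of clone 66 (over the left-out replicates −0.048 to 0.42), and clone 66 against clone 48 at day 0 became 0.013 and 0.091 without replicate 3 of clone 48 or replicate 1 of clone 66 (range over left-out replicates −0.59 to 0.091). In clone 66 alone, 2 genes rose by day 2, 2 fell by day 6, and 2 fell between day 2 and day 6, as 2 did in clone 48 alone; each single clone has fewer libraries, and Zfp521 was not testable in clone 66. Leaving out a replicate number of a clone gave 3 to 5 genes lower at day 6 than at day 0, 0 to 2 higher in clone 66 at day 2 and 0 to 1 at day 6. For the clone difference in change from day 0 to day 2, 1 gene (Gata3) was called with no filter and 1 with the replicate block, and none otherwise. The replicate block also called Foxo1 between days 6 and 2, and changed no other call of these genes; over all genes it raised the calls of the clone difference in change from 1144 to 2248, from 644 to 1369 and from 1033 to 2082, and left-out replicates lowered them to as few as 574, 316 and 537. With the block fitted within each day, 1 gene, Chn1, differed between RxraSA and RxraWT at day 2. Library size alone in place of TMM moved the share of rises among called genes from 48.9% to 33.6% at day 2 and from 48.2% to 34.9% at day 6, against day 0. Mean levels over the 12 libraries of a day moved by less than their SD with CPM of the total count, and some means of 3 or 6 libraries by more. The cause of these changes was not tested. The depth limits Dlk1, Zfp521 in clone 66 and Gata3. Counts per library were also low for Gata2 at day 6 (0 to 16) and for Zfp521 in clone 48 at day 6 (4 to 11). At day 2 they were low for Klf2 (8 to 28) and Sox9 (5 to 24).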

Other observations

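The low level of Zfp521 in clone 66 stood against its chromosome. Of 465 genes of chromosome 18 tested at day 0, 316 (68.0%) were higher in clone 66 and 9 (1.94%) were lower, with a median log2 fold change of 0.76, where 12.6% of all genes tested were higher and 11.1% lower. The next highest share of higher genes was 30.0%, on chromosome 3 (median 0.29), and on chromosome X 5.57% were higher and 37.2% lower (median −0.35). On chromosome 18 the median was 0.72 at day 2 and 0.71 at day 6. The comparison was made after the values of the Zfp521 neighbours had been seen, and clone and library pool cannot be told apart.

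Beyond the genes described above, the FOXO relative Foxo6, known from brain, fell from 0.335 CPM at day 0 to 0.0337 at day 2 and reached 1.96 at day 6 (log2 fold change 2.62 at day 6 against day 0, adjusted p = 2.31e-12). Des, the muscle intermediate filament gene, fell by 1.72 by day 2 (adjusted p = 4.15e-11) and was higher by 3.05 at day 6 than at day 0 on the log2 scale (adjusted p = 2.51e-19), while Myod1 had no count. Elovl3, a fatty acid elongase of brown fat, was at 6.45 CPM at day 2 and 0.559 at day 6.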
